A study of Bos taurus with 10 samples.

Results

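The regions described here were 4 windows of the bovine genome (UMD3.1) that hold the HOX gene clusters: chr4:69000000-69600000 for HOXA, chr19:38200000-39000000 for HOXB, chr5:26000000-26600000 for HOXC and chr2:20600000-21300000 for HOXD. The members were all CG sites in these windows with at least 8 reads in at least 1 tissue, which gave 1510 of the 468619 CG sites of the whole data set, with 349 in HOXA, 373 in HOXB, 334 in HOXC and 454 in HOXD. DNA methylation was measured by reduced representation bisulphite sequencing (RRBS) in 1 library from each of 10 tissues of a Hereford cow and related animals, to map how methylation differs among cattle tissues. In RRBS the DNA is cut at CCGG by *MspI* and short fragments are treated with bisulphite, and the level of a site is the share of its reads in which the cytosine was kept. Nucleated blood cells, skeletal muscle, uterus, testis and the lactating gland on d 90 came from adults, mammary parenchyma, frontal cortex, abomasum and ileum from juveniles, and rumen from a fetus. Testis and rumen were male and the other tissues female. Which animal gave which tissue was not stated in the sources used here, so tissue, animal, stage and sex cannot be told apart. Frontal cortex and nucleated blood cells were compared with the 8 other tissues, called trunk tissues here. Each tissue is a mixture of cells, and a level between 0 and 100 % can come from the share of cell types or from partial methylation within a type. The tissue labels were not checked against marker genes, since no expression data were analysed here.

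HOX genes encode homeobox transcription factors that give cells their position along the body axis, and in mammals they lie in 4 clusters on different chromosomes. Within a cluster, gene order follows the order in which the genes act from head to tail, and genes of low number act nearer the head. The forebrain lies in front of the region that HOX genes pattern, whereas blood stem cells use several genes of the HOXA and HOXB clusters and shut them down as they mature. HOX clusters are dense in CG islands, and in cells where they are silent the islands are mostly held by Polycomb proteins without DNA methylation. In the RefSeq annotation of another assembly, ARS-UCD2.0, the clusters hold 39 HOX genes, with MTX2, which encodes a protein of the outer mitochondrial membrane, and EVX2, another homeobox gene, at the ends of the HOXD cluster. Blocks of sites are therefore given by UMD3.1 position, and no block was assigned to a gene. A block is named by its window, and whether it lies inside the cluster was not determined.

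Where CG sites lay close together they were read as blocks, runs of at least 5 CG sites with gaps of at most 200 bp. The reference sequences around 10 of these blocks are shown because the comparisons below turn on them. Each is the forward strand of UMD3.1, 5′ to 3′, assembled from the overlapping 5-base contexts in the deposited files, and the capitals mark every CG. The first 3 lay where blood was highest, the next was low in every tissue, the next 3 are from HOXC and the last 3 from HOXD.
chr4:69353887-69353933: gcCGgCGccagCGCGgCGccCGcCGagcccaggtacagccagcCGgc
chr4:69357582-69357674: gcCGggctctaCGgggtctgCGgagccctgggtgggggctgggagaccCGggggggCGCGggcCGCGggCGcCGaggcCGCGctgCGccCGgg
chr19:38564629-38564676: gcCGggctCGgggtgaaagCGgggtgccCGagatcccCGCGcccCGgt
chr19:38584933-38584981: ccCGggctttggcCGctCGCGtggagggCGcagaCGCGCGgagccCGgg
chr5:26145657-26145709: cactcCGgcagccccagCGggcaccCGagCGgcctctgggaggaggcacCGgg
chr5:26157044-26157092: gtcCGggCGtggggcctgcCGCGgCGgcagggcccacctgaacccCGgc
chr5:26251490-26251541: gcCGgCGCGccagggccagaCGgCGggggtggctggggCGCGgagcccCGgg
chr2:20770406-20770457: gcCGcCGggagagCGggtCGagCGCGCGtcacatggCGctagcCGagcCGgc
chr2:20796126-20796172: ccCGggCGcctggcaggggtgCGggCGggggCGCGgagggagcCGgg
chr2:20811904-20811952: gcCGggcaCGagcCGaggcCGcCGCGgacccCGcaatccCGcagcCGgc
Among the 21 block sequences that could be assembled whole, length ran from 36 to 103 bases, the number of CGs from 5 to 14 and the G+C content from 73.6 to 89.4 %. Of the 25 block sequences assembled whole or in part, 24 held CCGG, the *MspI* site. Stretches of like G+C content held blocks that behaved differently. The block in chr4:69357582-69357674 (14 CGs, 86 % G+C) ranged over 90.1 points among tissues. That in chr2:20811904-20811952 (9 CGs, 83.7 % G+C) ranged over 10.7 points. The first stretch holds a CCGG inside it and its block lies from there on, so some of its 14 CGs are outside the block.

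Coverage of the windows differed among tissues. The number of CG sites with at least 8 reads was lowest in ileum with 368 and highest in testis with 765. Of the 1510 sites, 162 (10.7 %) were covered in all 10 tissues, with 39 in HOXA, 28 in HOXB, 30 in HOXC and 65 in HOXD. Another 924 were covered in 1 tissue only, of which 446 were seen only in testis and 365 only in abomasum. The 162 common sites belong to 124 CGs, of which 38 were covered on both strands. At the 162 common sites the median number of reads was 11 in abomasum and 31 to 46 in the other tissues. Because testis and abomasum set this limit, values are also given for a set chosen after the data were seen, the 306 sites covered in the 8 tissues without testis and abomasum. In that set the trunk tissues numbered 6.

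The HOX windows were less methylated than the other CG-rich parts of the genome that RRBS reads. Over the 162 common sites the mean CG level was 14.2 ± 9.08 % (SD over 10 tissues), against 28.8 ± 2.15 % over the 52845 other CG sites covered in all 10 tissues. The difference was -14.7 ± 7.76 points, with the windows lower in 10 of 10 tissues (two-sided exact sign-flip permutation test, p = 0.00195, the smallest it can give), and -32.8 points where sites were weighted by their reads. At a minimum of 10 or of 20 reads the windows were lower in 9 of 10 tissues. The test takes tissues as units, all read at the same 162 sites, and does not measure spread among sites or fragments. The gap was widest in frontal cortex, at 3.87 % in the windows and 27.6 % elsewhere, and in rumen, at 4.31 % and 27.7 %. In nucleated blood cells it nearly closed, at 32.3 % and 32.5 %. The level of the windows ran from 3.87 to 32.3 % over the tissues, and that of the rest of the genome from 24.4 to 32.5 %. A mean over 162 sites in few fragments can vary more than a mean over 52845 sites, and sets of equal size were not compared.

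No common site in the windows was at 90 % or more in every tissue, whereas 2.33 % of the other sites were. Sites at 10 % or less in every tissue were fewer as well, 26 of 162 (16 %) against 47.6 % elsewhere. The distance between the highest and the lowest tissue was at least 50 points at 41 of the 162 sites (25.3 %) against 9.08 % of the other sites. HOXA held 27 of these 41 sites, HOXC 6, HOXB 5 and HOXD 3. The median range over tissues was 92.2 points in HOXA, 11.1 in HOXB, 29.7 in HOXC, 26.1 in HOXD and 10 in the rest of the genome. At 50 % methylation or more stood 33 of the 162 sites in nucleated blood cells, 28 in skeletal muscle, 26 in uterus and 13 in ileum, and 0 in frontal cortex, while outside the windows this share was between 25.9 and 32.8 % in every tissue. These counts are of sites in few fragments that share reads, and they describe the libraries without a test.

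At the 162 common sites, nucleated blood cells had the highest mean level of the 10 tissues in each of the 4 windows. Blood was also the highest of the 10 tissues in the rest of the genome, by less. It was at 32.5 % there, and the trunk tissues ran from 24.4 % in testis to 30.5 % in ileum. In HOXA, blood was at 68.1 %, followed by skeletal muscle at 41.2 %, uterus at 39 %, ileum at 37.2 %, lactating gland at 23.3 %, mammary parenchyma at 16.1 %, testis at 14.9 %, cortex at 5.29 %, rumen at 4.26 % and abomasum at 2.79 %. Blood thus exceeded the trunk mean of 22.4 ± 15.4 % (SD, n = 8) by 45.8 points. In the other windows the excess was smaller, at 10.3 points in HOXB (21.3 against 11 ± 4.46 %), 13.2 in HOXC (26.5 against 13.4 ± 4.16 %) and 9.61 in HOXD (18.2 against 8.61 ± 3.87 %). Uterus was the highest trunk tissue in those 3 windows, at 17.2, 19.7 and 14.8 %, so that no trunk tissue reached blood in any window. With 1 tissue against 8, the exact permutation test cannot go below 0.111, and it gave 0.111 in each window (two-sided, 0.178 when adjusted by Benjamini-Hochberg with the tests of cortex, 8 in all).

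The size of the blood excess, and in 3 windows the first place of blood, depended on the sites and their weights. In the 306 sites of the 8-tissue set it was 44 points in HOXA and 13.2 in HOXB, but 5.81 in HOXC, where skeletal muscle was higher (38.1 against 35.1 %), and 2.58 in HOXD, where skeletal muscle (25.9 %) and ileum (22.4 %) were above blood (20.3 %). In HOXB it fell to 5.62 points at a minimum of 10 reads (exact permutation p = 0.222), and to 1 point (p = 0.889 by the same exact test) when sites were weighted by reads, where blood ranked 4 of 9 among blood and the trunk tissues. With every site covered in a tissue, whether or not in the others, blood ranked 2 of 9 in HOXC (10.8 points, exact permutation p = 0.333) and 3 of 9 in HOXD (4.56 points, p = 0.556 by the same exact test). In HOXA blood ranked first in each of these settings. Against adult trunk tissues only, it was 38.5 points in HOXA, 8.16 in HOXB, 11.1 in HOXC and 7.26 in HOXD.

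**Figure D1:**
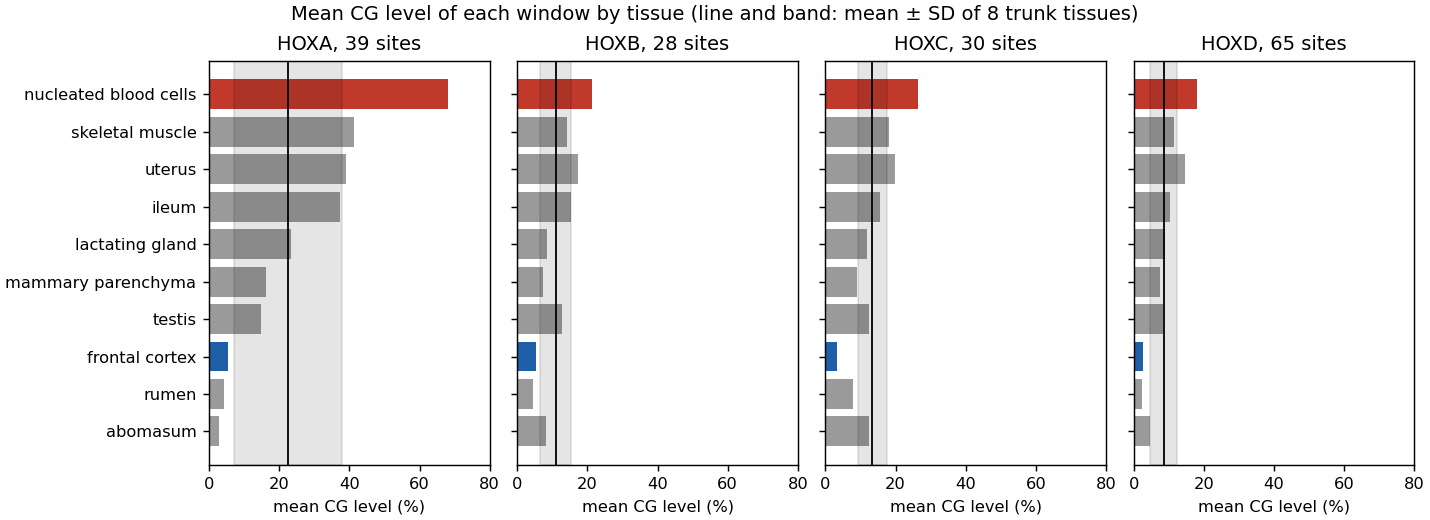
Mean CG methylation level (x axis, %) of the common sites of each HOX window in the 10 tissues (rows, 1 library each), with nucleated blood cells in red and frontal cortex in blue. The line and grey band give the mean ± SD of the 8 trunk tissues, and blood lies to the right of every trunk tissue in each window, from 18.2 % in HOXD to 68.1 % in HOXA.

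Frontal cortex lay at the opposite end, but shared it with other tissues. Its level was 5.29 % in HOXA, 5.44 % in HOXB, 3.21 % in HOXC and 2.64 % in HOXD. Its difference from the trunk mean was -17.1, -5.55, -10.1 and -5.97 points, respectively, and at these sites it was below all trunk tissues only in HOXC, where the lowest of them was rumen at 8 %. At a minimum of 10 reads the HOXC difference was -4.4 points, with cortex no longer the lowest (exact permutation p = 0.667). Rumen was lower than cortex in the other windows, at 4.26, 4.62 and 2.52 %, and abomasum in HOXA as well. The exact permutation test gave 0.667, 0.444, 0.111 and 0.333, and 0.667, 0.507, 0.178 and 0.444 after adjustment. Against juvenile trunk tissues only, the difference was -13.4, -4.87, -9.09 and -4.88 points. In the 8-tissue set the difference from the mean of the 6 trunk tissues was -22.6, -8.83, -16.2 and -11 points, and cortex was below all 6 in HOXB (5.44 against 6.28 % in rumen) and HOXC (13 against 21.3 % in rumen). Blood exceeded cortex by 62.8 points in HOXA, 15.8 in HOXB, 23.3 in HOXC and 15.6 in HOXD.

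At the 162 common sites the 4 windows ordered the tissues much alike. Across the 10 tissues the window means there had Pearson's r of 0.916 to 0.954 and Spearman's rho of 0.794 to 0.964 between windows, values that describe the same 10 libraries at different sites. The first tissue of the 8-tissue set was blood in HOXA and HOXB and skeletal muscle in HOXC and HOXD.

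Differences at single CG sites were read from the methylated and unmethylated reads with Fisher's exact test, adjusted by Benjamini-Hochberg over all 152300 cytosines covered in all 10 tissues, and a call needed an adjusted p below 0.01 and levels at least 25 points apart. The test compares libraries. Of the 162 sites, 68 (42 %) were called in at least 1 of the 45 pairs of tissues, against 19.8 % of all CG sites. Blood was called higher than cortex at 48 sites (27 in HOXA, 5 in HOXB, 6 in HOXC and 10 in HOXD) against 3.4 % of all CG sites, and lower at 0 sites against 0.594 %. In the 8-tissue set blood was called higher than cortex at 61 of 306 sites (background 2.8 %) and lower at 0 (0.547 %).

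Against the trunk tissues, blood differed at 54 sites from rumen (background 3.38 %), at 38 from mammary parenchyma (2.75 %), at 37 from lactating gland (3.56 %), at 36 from testis (10.2 %) and at 28 from abomasum (1.29 %). It differed at 17 sites from skeletal muscle (2.5 %), at 14 from ileum (0.817 %) and at 6 from uterus (0.636 %). Blood was the higher tissue at all of these sites except 4 with skeletal muscle (0.543 %) and 1 with testis (0.589 %). Cortex differed at 27 sites from uterus (background 1.06 %), at 27 from ileum (1.72 %), at 24 from skeletal muscle (0.853 %) and at 13 from lactating gland (2.2 %), and was the lower tissue at each. It differed at 4 sites from mammary parenchyma (1.45 %), at 3 from rumen (0.887 %), at 3 from testis (3.24 %, above the 1.85 % in the windows) and at 0 from abomasum (0.524 %). Pairs of trunk tissues differed at 0 to 28 sites, with a median of 1.5 over the 28 pairs (backgrounds 0.241 to 7.64 %). A site in abomasum rests on few reads, so fewer differences were detectable there. With reads thinned to the lowest coverage at each site, the median number of sites called over the 8 trunk pairs went from 32 to 8.5 for blood and from 8.5 to 0 for cortex.

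**Figure D2:**
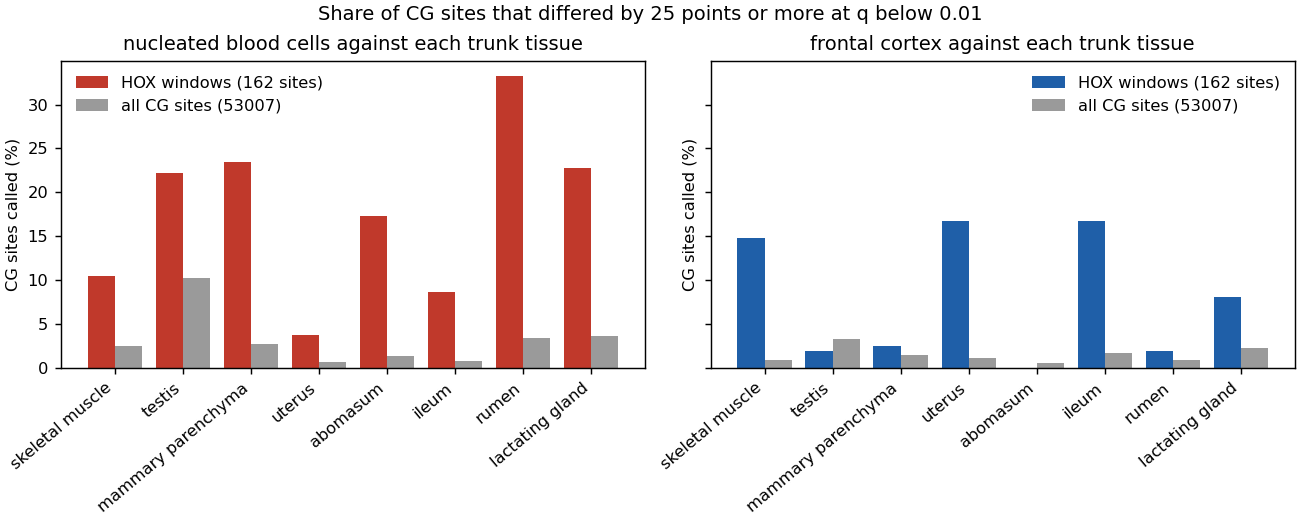
Share of CG sites called (y axis, %) in nucleated blood cells (red, left) and frontal cortex (blue, right) against each trunk tissue (x axis), beside the share over all 53007 CG sites covered in all 10 tissues (grey). The windows exceed the grey bar in all 8 blood pairs, from 3.7 % with uterus to 33.3 % with rumen, and in 6 of the 8 cortex pairs, the exceptions being testis and abomasum.

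Blood was higher than every trunk tissue at 2 sites (background 0.0604 %) and lower at 0 (0.0717 %), and cortex was lower at 0 sites (0.00566 %) or higher at 0 sites (0.0151 %). Both sites, named after their values were seen, lay on the forward strand of the 20-site HOXA block at chr4:69357640 and chr4:69357645, within reach of the same reads. At the first, 25 of 27 blood reads were methylated (92.6 %, 95 % Wilson interval 76.6 to 97.9 %). The highest trunk tissue there was skeletal muscle with 16 of 37 reads (43.2 %, 28.7 to 59.1 %), and cortex had 3 of 39 (7.69 %, 2.65 to 20.3 %). Intervals cover counting error only, since PCR copies were not marked. In the 8-tissue set blood was higher than all 6 trunk tissues at 7 of 306 sites (background 0.0598 %), all in HOXA, and lower at 0 (0.0609 %). Cortex was lower than all 6 at 1 site (0.0111 %) and higher at 0 (0.0299 %). The site lower in cortex was chr5:26157052 in HOXC, named after its value was seen, with 1 of 35 methylated reads in cortex (2.86 %, 0.506 to 14.5 %) and 24 of 55 in uterus, the lowest trunk tissue (43.6 %, 31.4 to 56.7 %). Blood was at 41 % there, next to uterus. The count of 2 sites for blood became 0 with thinned reads and 7 without uterus.

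In each window the 2 sites called in most of the 16 pairs of blood or cortex with a trunk tissue were followed. In HOXA these were chr4:69357655 and chr4:69357667, each called in 11 pairs, 7 with blood and 4 with cortex. At both, every blood read was methylated, 24 of 24 (interval from 86.2 %) and 26 of 26 (from 87.1 %), against 1 of 39 and 3 of 39 in cortex. Skeletal muscle had 50 and 78.4 % and uterus 54.8 and 57.7 %. In HOXB, chr19:38564667 and chr19:38564658 were called in 6 and 5 pairs, and blood had 15 of 15 methylated reads at each (from 79.6 %) against 20.8 and 12.5 % in cortex. Both HOXB sites lay on the reverse strand with equal read numbers in each tissue. They were within reach of the same reads and are not separate evidence.

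The sites of HOXC and HOXD gave other orders of tissues. In HOXC, chr5:26157063 and chr5:26157068 were called in 8 and 7 pairs, of which 6 and 7 were with cortex. Both lay on the forward strand, within reach of the same reads. Cortex had 0 of 32 and 1 of 32 methylated reads (0 %, up to 10.7 %, and 3.12 %), skeletal muscle had 23 of 28 at each (82.1 %), and blood was low among the rest at 14.7 and 38.2 %. In HOXD, chr2:20760870 and chr2:20760861 were called in 3 pairs each, all with blood, at 47.1 and 44.7 % in blood and at most 29.8 and 26.1 % in the trunk tissues.

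Blocks showed where along each window these differences lay. There were 14 blocks in the windows among the sites covered in all 10 tissues, of 4373 in the genome, each spanning 21 to 47 bp. Blood lay at least 10 points above all 8 trunk tissues in 5 of the 14 (background 2.49 % of blocks) and below in 0 (0.572 %), and was the highest of the 10 tissues in 9, against 34 % of all blocks. Cortex lay at least 10 points above or below all trunk tissues in 0 blocks (0.366 and 0.389 %). In the 8-tissue set there were 25 blocks of 6696, and by the same margin blood was above all 6 trunk tissues in 4 (2.99 %) and below in 0 (0.642 %), and cortex above in 0 (0.612 %) and below in 2 (2.37 %). Blood was the highest of the 8 tissues in 10 of these 25 blocks (40 %), near its share of 36.4 % over all blocks. Skeletal muscle was the highest in 8 (32 %, against 7.95 % of all blocks), and cortex was the lowest in 11 (44 %, against 21.9 %) and rumen in 7 (28 %, against 17.7 %).

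In HOXA the difference lay in 2 of the 3 blocks measured. At chr4:69353893-69353931 (7 sites) the level was 96.6 % in blood, 75.4 % in ileum, 69 % in skeletal muscle, 54.4 % in uterus, 31.1 % in testis, 28.3 % in lactating gland, 10 % in mammary parenchyma, 9.91 % in cortex, 8.9 % in rumen and 2.73 % in abomasum. The trunk tissues thus filled almost the whole scale, with blood above and cortex among the lowest. At chr4:69357630-69357672 (20 sites) blood was at 94.2 %, skeletal muscle at 55.6 %, uterus at 52.6 %, ileum at 43.6 %, lactating gland at 35.3 %, mammary parenchyma at 27.7 %, testis at 15.8 %, cortex at 6.22 %, rumen at 4.63 % and abomasum at 4.14 %. Blood ran from 73.9 to 100 % over the 20 sites and cortex from 0 to 10.8 %, whereas skeletal muscle spread from 8.33 to 83.8 %. These sites are cytosines of both strands within 43 bp that share reads, and the block was named for its large range. The block at chr4:69312496-69312535 (12 sites), in the same window, was at 8.06 % in blood, 7.41 % in uterus and 4.31 % or less in the other tissues.

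**Figure D3:**
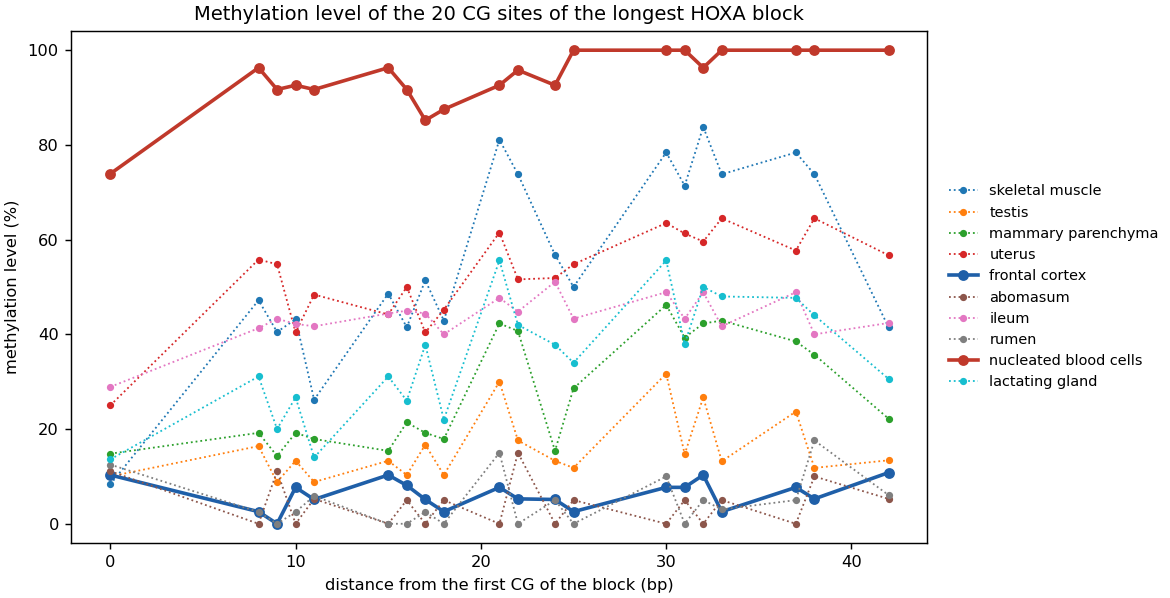
Methylation level (y axis, %) of each of the 20 CG sites of the HOXA block with most sites, by distance from its first CG (x axis, bp), with 1 line for each tissue. Blood (red) stays between 73.9 and 100 % and cortex (blue) between 0 and 10.8 %, while rumen and abomasum lie with cortex.

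HOXB had a like block between unmethylated ones. At chr19:38564638-38564669 (5 sites) the level was 98.7 % in blood, 75.3 % in uterus, 70.3 % in ileum, 67.8 % in skeletal muscle, 54.5 % in testis, 35.6 % in abomasum, 35.3 % in lactating gland, 32.9 % in mammary parenchyma, 20 % in cortex and 18.7 % in rumen. The blocks on either side, chr19:38503340-38503372 (7 sites) and chr19:38584935-38584972 (15 sites), were at 5.77 % or less in every tissue. In the 8-tissue set the block at chr19:38483362-38483403 (8 sites) had 27.6 % in uterus, 26.1 % in blood, 23.6 % in ileum, 13.5 % in lactating gland, 6.25 % in skeletal muscle, 4.9 % in cortex, 1.67 % in rumen and 1.14 % in mammary parenchyma, so that blood was not the highest there.

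In HOXC the order of tissues changed along the window. At chr5:26251492-26251531 (12 sites) blood was highest at 35.9 %, uterus had 19.4 % and ileum 16.4 %, and the other tissues were at 8.85 % or less. At chr5:26255596-26255634 (5 sites) blood was at 26.6 %, ileum, uterus, testis and skeletal muscle between 11.1 and 12.7 % and cortex at 5.13 %. At chr5:26158557-26158584 (6 sites) skeletal muscle was highest at 22.2 %, then blood at 14 %, with cortex at 1.5 %.

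In some of the HOXC blocks added by the 8-tissue set, blood was low and cortex lower still. In others blood was second or highest. At chr5:26157047-26157090 (10 sites) skeletal muscle was at 74.1 %, lactating gland at 66 %, mammary parenchyma at 50.1 %, rumen at 49.5 %, uterus at 45.4 %, ileum at 35.5 %, blood at 28.9 % and cortex at 4.48 %. Cortex lay far below each trunk tissue, and rumen, which was as low as cortex in HOXA, was not low here. At chr5:26145662-26145687 (7 sites) skeletal muscle was at 69.5 %, ileum at 54.4 %, uterus at 37.9 %, lactating gland at 19 %, mammary parenchyma at 17.9 %, blood at 16.7 %, rumen at 5.81 % and cortex at 3.96 %. Cortex was also the lowest of the 8 tissues at chr5:26089545-26089562 (7 sites), with 46.4 % against 66.8 to 89.8 % in the 6 trunk tissues and 86.6 % in blood. Cortex ran from 12.5 to 100 % over these 7 sites. Testis, outside the set, was at 41.9 % over the sites it covered, which may be as few as 3 of the 7. At chr5:26235849-26235880 (5 sites) ileum was highest at 37.5 %, then blood at 34.1 %, with cortex the lowest of the 8 tissues at 4.17 %. The last HOXC block, chr5:26498893-26498934 (5 sites), was methylated in every tissue of the set, at 91.8 to 99.5 %, and blood was the highest.

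In HOXD the highest tissue changed from block to block. At chr2:20760843-20760889 (22 sites) blood was at 32.2 %, uterus at 22.6 %, ileum at 16.3 %, lactating gland at 9.46 %, testis at 8.65 %, mammary parenchyma at 7.61 %, abomasum at 6.11 %, skeletal muscle at 5.76 %, cortex at 1.83 % and rumen at 1.24 %. At chr2:20796133-20796160 (5 sites) skeletal muscle was at 52 %, mammary parenchyma at 28.8 %, lactating gland at 27.2 %, ileum at 19.6 %, testis at 16.2 %, uterus at 10 %, rumen at 7.25 %, blood at 3.53 %, cortex at 2.22 % and abomasum at 0 %. Blood and skeletal muscle thus exchanged places between these blocks, and cortex was at 2.22 % or less in both. At chr2:20790318-20790338 (5 sites) skeletal muscle was again highest at 35 %, with testis at 30 %, blood at 8.72 % and cortex at 4.35 %.

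The remaining HOXD blocks covered in all 10 tissues were low. At chr2:20811906-20811950 (16 sites) blood was at 12.5 % and the others at 7.68 % or less, and at chr2:20867661-20867692 (9 sites) uterus had 13.2 % and blood 12.9 %, with 6.13 % or less elsewhere. In the 8-tissue set, chr2:20770408-20770455 (17 sites) had 61.9 % in skeletal muscle, 50.8 % in ileum, 39.9 % in lactating gland, 29.4 % in uterus, 23.5 % in cortex, 22.4 % in blood, 17.1 % in mammary parenchyma and 11.7 % in rumen. Here cortex lay within the trunk range and close to blood. At chr2:20776600-20776635 (7 sites) uterus, ileum and skeletal muscle had 73.1, 71.4 and 67.3 %, blood 52.2 %, rumen 31 % and cortex 23.2 %.

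**Figure D4:**
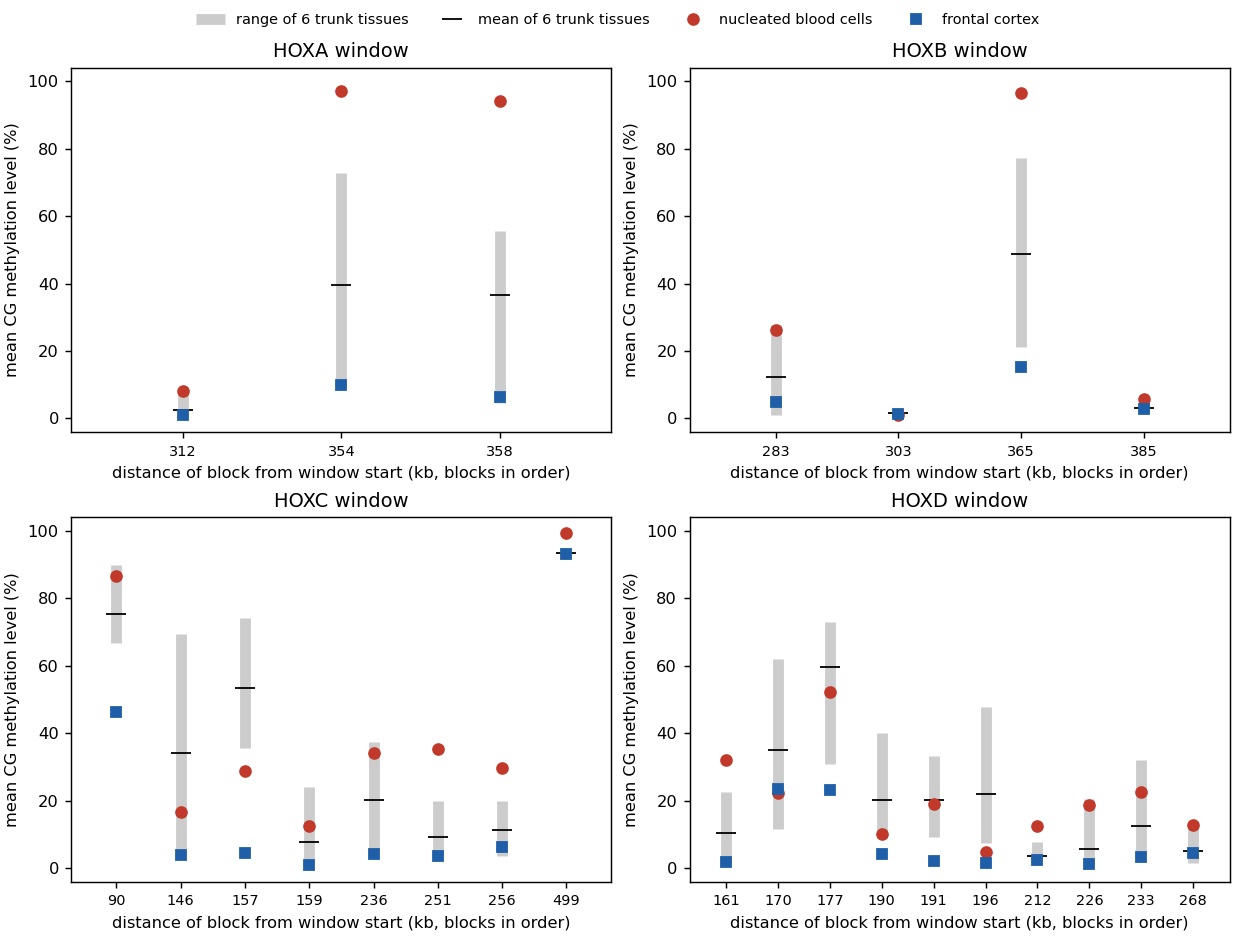
Mean CG level (y axis, %) of the 25 blocks of the 8-tissue set in order along each window (x axis, distance from the window start in kb), with blood in red, cortex in blue, the range of the 6 trunk tissues as a grey bar and their mean as a dash. Blood is at least 10 points above the bars at 354 and 358 kb in HOXA, 365 kb in HOXB and 251 kb in HOXC, and within or below them at 146 and 157 kb in HOXC and between 170 and 196 kb in HOXD.

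**Figure D5:**
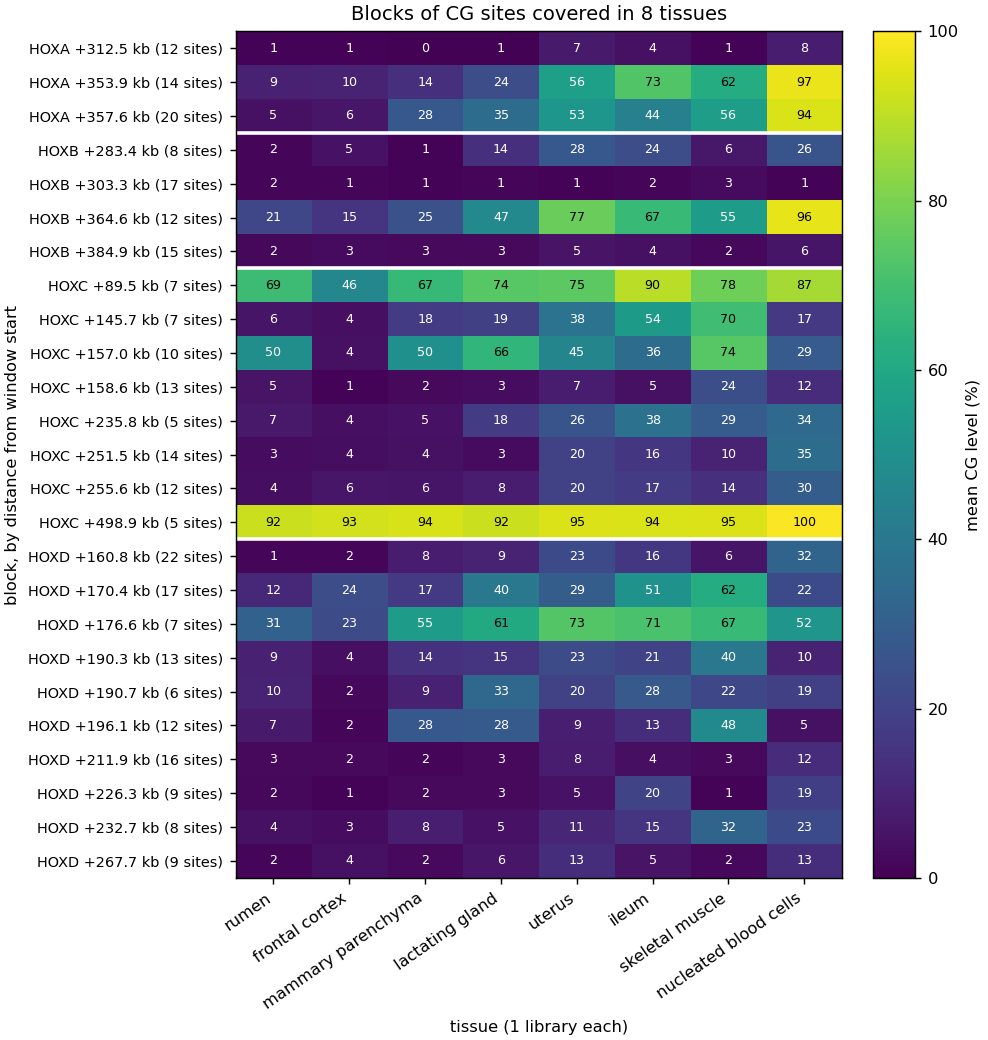
Mean CG level (%, colour and number) of the same 25 blocks (rows, by window and distance from its start) in the 8 tissues (columns, 1 library each). Blood is at 94.2 and 97.1 % in 2 HOXA rows and 96.4 % in 1 HOXB row, where the other tissues spread widely, all 8 tissues are at 91.8 to 99.5 % in the last HOXC row, and skeletal muscle is the highest of the 8 tissues in 8 rows.

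As checks on these values, the 38 CGs with both strands covered differed between strands by 4.29 points on average (median 3.33). Means of a low block such as chr19:38503340-38503372 ranged over 4.76 points among tissues, and other blocks ranged far more widely. The first value is a difference at single CGs and the second a range of block means, so they are unlike measures. Of the 3400 CHG and CHH cytosines of the windows, a tissue covered from 638 (ileum) to 2088 (testis). The mean level over those each tissue covered was between 0.602 % in abomasum and 1.43 % in uterus, with 1.13 % in cortex and 1.36 % in blood. The CG level of cortex in HOXD, 2.64 %, was thus near the level outside the CG context, and the low blocks cannot be ordered finely.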

How the data were processed

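The authors mapped trimmed RRBS reads on UMD3.1 with a pipeline built on SOAPaligner and kept cytosines with at least 8 reads. For each cytosine they deposited the number of reads as a count, without normalization, and the methylation level as a fraction of methylated reads. Further deposited columns, a second read number and a p-value with its FDR, were not used. Methylated reads were recovered as level times reads. Levels were averaged over sites without weighting, within a window or a block (gaps of at most 200 bp, at least 5 sites).

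Reads of 45 pairs of tissues were compared by Fisher's exact test at all 152300 cytosines covered in all 10 tissues, p-values were adjusted by Benjamini-Hochberg in each pair, and sites were called at an adjusted p below 0.01 and 25 points. Blood or cortex was set against the trunk tissues by exact permutation. With 1 library per tissue, spread between animals was not measured, and p-values on reads compare libraries. Median depth at common sites was 11 reads in abomasum and 31 to 46 elsewhere. At 8 reads, the minimum, a level moves in coarse steps.

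Named were, per window, up to 4 blocks with the largest range, the longest block with a range below 10 points, and the 2 sites called in most pairs. The block at chr2:20811906-20811950 was described outside this rule. So were some, not all, of the blocks added with the 8-tissue set. The windows and lists were chosen with earlier results of these data known. Other coverage minimums, weighting, thinning, thresholds, block rules and trunk sets were tried. The 8-tissue set, its 25 blocks, and the alternatives for the genome comparison and for counts over pairs were added after the data were seen. Calling was tested on simulated reads. matplotlib 3.10.9, SciPy 1.17.1, Numba 0.67.0, NumPy 2.4.6 and pandas 2.3.3 were used under Python 3.11.15, with seed 1. Gene names came from RefSeq (ARS-UCD2.0), and the order of genes within the clusters is not reported here. No UMD3.1 annotation was used here.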

Additional observations from a re-analysis of the deposited data

Results flagged for a closer look

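Outside the CG context, 9 of the 3400 cytosines of the windows were at 50 % or more in at least 1 tissue, far above the mean non-CG level of 0.602 to 1.43 %. The context of a cytosine is that of the UMD3.1 reference, and whether the animals carry the reference bases at and beside these positions was not tested. In the sequences assembled for blocks, chr4:69357628, chr5:26158549 and chr19:38483355 each lay 1 base before CCGG, the *MspI* site, and chr2:20770437 did not. The remaining sites lay outside those sequences. Whether a place beside the cut site bears on these levels was not tested. A CHH cytosine in HOXD, chr2:20788965, was at 100 % in all 9 tissues that covered it, on 8 to 28 reads. In HOXC, chr5:26158549 was at 97.1 to 100 % in 9 tissues on 32 to 83 reads. In HOXB, chr19:38483355 was at 93.8 to 100 % in 7 tissues, and in HOXD chr2:20811558 was at 90.9 to 100 % in 6 tissues and chr2:20844747 at 50 to 100 % in 9. In HOXA, chr4:69357628, next to the block of 20 CG sites, was lowest in nucleated blood cells, the tissue highest at its CG neighbours, and ran from 52.2 % there to 97.8 % in ileum over the 9 tissues that covered it. The other 3 were high in 1 tissue each, at 64 % in ileum (chr2:20770437, 25 reads), 100 % in nucleated blood cells (chr4:69383146, 9 reads) and 90 % in lactating gland (chr5:26037147, 10 reads).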

How the results depend on the processing

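No paired analysis was possible because each tissue had 1 library, and the replicate number 1 that each carries only names it and pairs no samples. The window differences of blood and cortex from the trunk kept their direction in all 140 alternatives, and none could pass 0.05. The 140 count the runs without testis and without abomasum again among those with 1 trunk tissue left out. At the common sites blood was above every trunk tissue, so no choice of trunk tissues there could turn its direction. The same holds for cortex in HOXC, where it was below them all. Blood was not the highest in HOXB weighted by reads, or in HOXC and HOXD with every covered site or in the 8-tissue set. At 20 reads, 16 common sites were left, none in HOXB or HOXC. Sites with blood above all 8 trunk tissues went from 2 to 1 at 20 reads, 0 with thinned reads or Bonferroni adjustment, 5 at q below 0.05, 4 with adjustment over CG sites, 7 with strands pooled or in the 8-tissue set, and 2 to 7 with 1 trunk tissue left out (7 without uterus). Sites with cortex below all went from 0 to 1 without abomasum or in the 8-tissue set, and ranged from 0 to 1 with 1 tissue left out. Sites higher in blood than in cortex went from 48 to 12, 16 and 27 at 20 reads, with thinned reads and with Bonferroni adjustment, sites called in any pair from 68 to 15, 21 and 35, the median over blood pairs from 32 to 7, 8.5 and 14, and that over cortex pairs from 8.5 to 2.5, 0 and 1.5 (5.5 at 10 reads). Fewer sites or reads were tested in the first 2 of these. Blocks with blood above the trunk went from 5 of 14 to 2 of 6 with 10 sites per block, 1 with 25 points and 1 of 2 at 20 reads, and were 5 to 6 with 1 tissue left out. Blocks with cortex below went from 0 to 1 without rumen and 2 in the 8-tissue set. The gap between the windows and the rest of the genome was -13.8 to -32.8 points.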
